A study of Mus musculus with 6 samples.

Results

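The vascular endothelial growth factor (VEGF) family was followed through 10 genes, chosen by name: the ligand genes Vegfa, Vegfb, Vegfc, Vegfd and Pgf, the receptor genes Flt1, Kdr and Flt4, and the co-receptor genes Nrp1 and Nrp2. They were 10 of the 19131 genes in the files, and all 10 were among the 15035 genes that passed the filter on low counts. The samples were skin of C57BL/6N mouse embryos at embryonic day 17.5, with 3 libraries labelled Tie1 knockout and 3 labelled control, profiled by RNA-seq of poly(A)-selected RNA. The titles of both groups write the genotype with the letters ECD (Tie1ECDKO and Tie1ECDWT), which the labels do not explain, and no promoter, Cre line or treatment is named. Whether each library is a separate embryo is not in the labels, so each p-value measures only the spread between these libraries, which may be technical. TIE1 is a receptor tyrosine kinase of endothelial cells, and the series asks how its loss affects sprouting and the formation of veins.

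VEGF-A is the main growth and permeability factor of blood vessels and signals through KDR (VEGF receptor 2). FLT1 (VEGF receptor 1) binds VEGF-A tightly but signals weakly and also exists as a soluble trap, and it is the receptor of VEGF-B and placental growth factor (PlGF, from Pgf). VEGF-C and VEGF-D act on FLT4 (VEGF receptor 3), which in the late embryo is found mainly on lymphatic vessels and on sprouting blood vessels. NRP1 and NRP2 bind VEGFs and class 3 semaphorins, and NRP2 is a feature of veins and lymphatics. In skin the ligands come largely from cells outside the endothelium, such as keratinocytes, fibroblasts, macrophages and mural cells.

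In GRCm38.p6 (RefSeq) the ligand genes span chr17:46016993-46032377 (Vegfa), chr19:6982472-6987651 (Vegfb), chr8:54077532-54186454 (Vegfc), chrX:164373522-164402650 (Vegfd) and chr12:85166637-85177785 (Pgf). The receptor genes span chr5:147561604-147726438 (Flt1), chr5:75932827-75979072 (Kdr) and chr11:49609679-49652739 (Flt4), and the neuropilin genes chr8:128358591-128505476 (Nrp1) and chr1:62703317-62818692 (Nrp2). The sequence before the start is shown for 4 of the 5 ligand genes, since the ligands are where the knockout and control libraries differed most. Both listed windows of Pgf fall in annotated exons of that gene, so none is shown for it. The windows are 250 bases long, read 5′ to 3′ on the strand of the gene, and that of Vegfd ends after 106 bases where an annotated exon begins. They are chr17:46032378-46032627 on the minus strand for Vegfa, chr19:6987652-6987901 on the minus strand for Vegfb, chr8:54077282-54077531 on the plus strand for Vegfc and chrX:164373272-164373377 on the plus strand for Vegfd (RefSeq, GRCm38.p6). Capitals mark the GC box GGGCGG on either strand.
Vegfa: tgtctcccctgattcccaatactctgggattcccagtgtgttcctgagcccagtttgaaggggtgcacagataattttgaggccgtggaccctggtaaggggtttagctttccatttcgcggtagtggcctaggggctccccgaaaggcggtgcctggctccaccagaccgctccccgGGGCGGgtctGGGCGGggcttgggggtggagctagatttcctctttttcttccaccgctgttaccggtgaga
Vegfb: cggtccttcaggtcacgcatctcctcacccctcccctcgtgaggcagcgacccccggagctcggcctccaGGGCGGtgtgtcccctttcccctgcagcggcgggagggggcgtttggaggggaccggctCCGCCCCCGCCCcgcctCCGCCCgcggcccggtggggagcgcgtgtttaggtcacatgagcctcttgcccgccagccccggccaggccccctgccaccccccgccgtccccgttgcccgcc
Vegfc: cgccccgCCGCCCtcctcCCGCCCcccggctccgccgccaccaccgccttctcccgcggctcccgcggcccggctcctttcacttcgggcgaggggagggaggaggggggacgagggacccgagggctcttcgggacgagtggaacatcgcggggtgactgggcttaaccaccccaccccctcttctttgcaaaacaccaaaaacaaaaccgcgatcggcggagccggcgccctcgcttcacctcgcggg
Vegfd: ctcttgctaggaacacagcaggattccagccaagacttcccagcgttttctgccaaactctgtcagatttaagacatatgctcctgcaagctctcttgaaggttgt
A GC box was present in 10 of the 12 windows of the 10 genes and in 32.7% of all 32851 RefSeq windows of that length. The full window of Vegfd held none and was 42.4% G or C, whereas those of Vegfa, Vegfb and Vegfc were 59.2%, 76.4% and 71.6%. The core ACGTG, which hypoxia-inducible factors bind, was found on either strand in 1 of the 12 windows, the second window of Vegfa inside the gene, and in 16.6% of all windows. The core GGAAG, bound by ETS factors, was in 7 of the 12 windows and in 64.1% of all. Matches of different motifs may share bases, and a match is a description of letters only.

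The 6 libraries held 19826856 to 20591164 estimated reads, and 3 reads, taken as the floor, were worth 0.147 to 0.155 CPM (reads per 1000000 reads of the TMM-scaled library). Any 2 libraries differed by more than sampling, with a variance 9.95 to 51.3 times that of sampling. Tie1 stood at 3.07 ± 1.11 CPM in the knockout and 56.4 ± 5.02 CPM in the control libraries (SD, n = 3 each), as labelled. Keratinocyte, fibroblast and endothelial markers were present in every library, with no marker of these lists at 0. The hair follicle markers summed to 156 CPM in knockout 1, 127 CPM in control 1 and 244 to 394 CPM in the other 4 libraries. Knockout 1 and control 1 thus stood apart, and results are given without them where that changes a call or a direction. A posterior Hox score, the mean log2 CPM of 8 posterior Hox genes, was 2.99, 3.30 and 3.28 in knockout 1, 2 and 3. It was 3.14, 2.42 and 1.99 in control 1, 2 and 3. This score thus leaned with genotype, and a fit with it as a covariate cannot fully separate them.

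Transcripts of 4 of the 5 ligand genes were higher in every knockout library than in any control library, and Pgf differed most, by 2.02-fold (log2 fold change 1.01, SE 0.14). None of the 10 genes passed edgeR's quasi-likelihood test after adjustment over all genes (Benjamini-Hochberg, adjusted p under 0.05), a threshold passed by 0.16% of all genes (0.0865% higher and 0.0732% lower in the knockout). At an unadjusted p under 0.05 there were 4 of the 10, all ligand genes and all higher in the knockout, against 7.42% of all genes (4.08% higher, 3.35% lower). Groups that did not overlap were found for 5 of the 10, 4 higher and 1 lower in the knockout, against 13.8% of all genes (7.03% higher, 6.78% lower). The 10 genes were chosen with earlier results of these libraries known, so these shares are no independent evidence of a difference. DESeq2 called 2 of the 10, Vegfc and Pgf, against 1.4% of all genes it tested, and limma-voom called 0 of the 10 against 0.0998%. Also without a call among the 10 were RLE scaling (0.16% of all genes), upper-quartile scaling (0.173%), a filter of 1 CPM in 3 libraries (0.168%), a posterior Hox score as a covariate (0.0333%) and a replicate block (0.346%). The same held with 1 library left out, where the test called 0.0725%, 0.00659% and 0.0527% of all genes without knockout 1, 2 and 3, in that order, and 0.0527%, 0.0197% and 0.0197% without control 1, 2 and 3. A positive log2 fold change was seen for 7 of the 10, against 51.2% of all genes, and their median was 0.16, beside 0.0038 over all genes tested. In simulated data of the same depth and spread over 15035 genes the edgeR test recovered 26% of 1.5-fold, 82% of 2-fold and 80% of 3-fold changes. It also made 9 false calls. The simulation changed 200 genes by up to 4-fold, which can ease the adjusted threshold, whereas 24 genes were called in these libraries. Its recovery may thus be higher than that in the measured data. In 8 of the 10 genes the measured difference was under 1.5-fold.

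**Figure D1:**
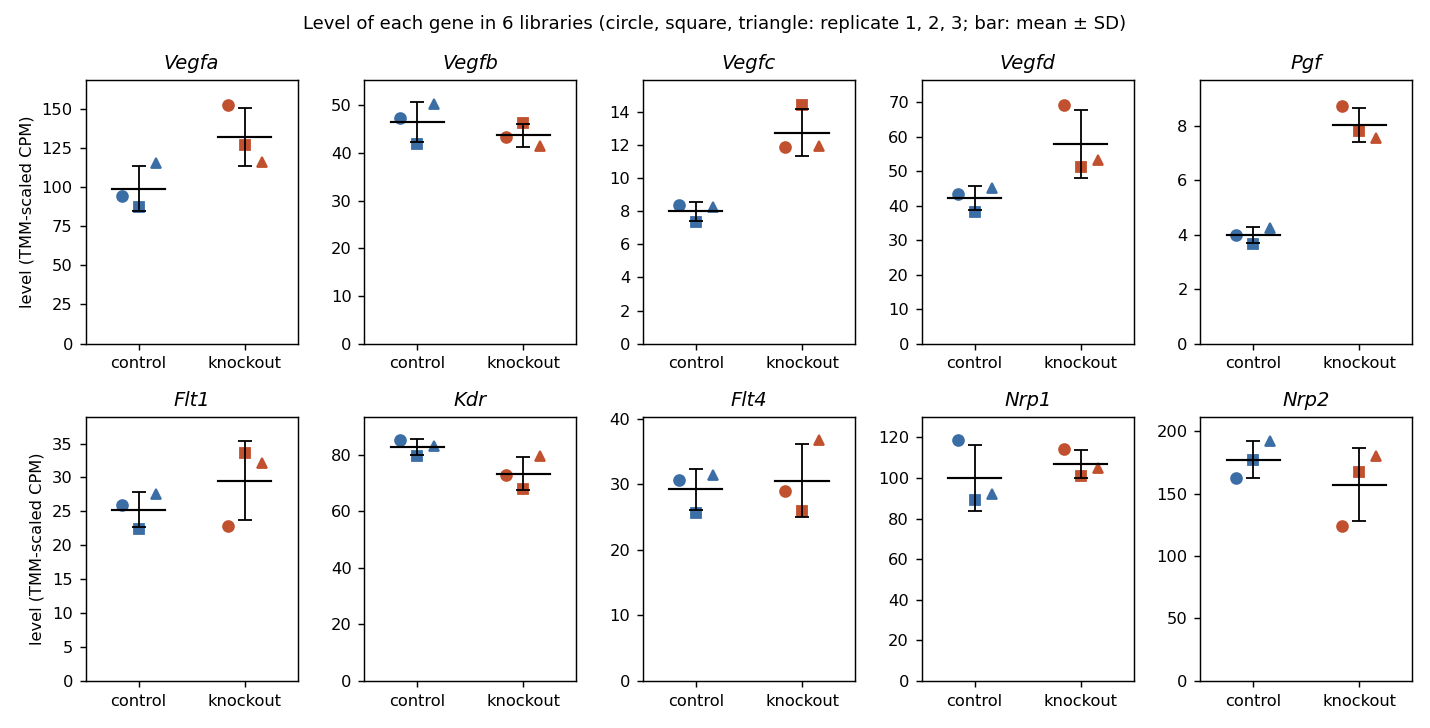
Level of each of the 10 genes in the 6 libraries (y axis, TMM-scaled CPM from 0), with the mean and SD of each group as black bars. For Pgf and Vegfc the 3 knockout libraries lie clear of the 3 control libraries, whereas for Vegfa and Kdr the nearest libraries of the groups almost touch.

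Pgf encodes PlGF, a ligand of FLT1 and NRP1 that is low in most resting tissue. Its level was 8.71, 7.78 and 7.56 CPM in knockout 1, 2 and 3 and 3.996, 3.66 and 4.25 CPM in control 1, 2 and 3. Every knockout library thus held more Pgf than any control library, with a wide gap between the groups. These levels rest on few reads, 169, 157 and 154 in the knockout against 81, 74 and 86 in the control libraries, a summed ratio of 1.99 (95% Clopper-Pearson interval 1.70 to 2.33). Such intervals cover counting error only, as PCR copies cannot be removed without molecular identifiers. The SD between libraries, 0.611 CPM in the knockout and 0.291 CPM in the control, was no larger than that expected from counting alone, 0.633 and 0.443 CPM. The log2 fold change of 1.01 had a 95% interval of 0.70 to 1.33 and an edgeR adjusted p of 0.0547, just over the threshold, and Pgf ranked 30 of 15035 genes by p. It was called by edgeR with no filter on low counts (adjusted p = 0.0473), with the hair follicle score as a covariate (0.0264) and without knockout 1 and control 1 (0.0485), and by DESeq2 (7.6e-05), with a range over 16 settings of 7.6e-05 to 0.288. The shares of all genes called in these 4 settings were 0.205%, 0.745%, 0.923% and 1.4%.

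Vegfc encodes the ligand of FLT4 that drives lymphatic growth and part of the sprouting of veins. It was measured at 11.9, 14.4 and 11.97 CPM in the knockout libraries and at 8.39, 7.33 and 8.29 CPM in the control libraries. The lowest knockout library was well above the highest control library. Vegfc thus differed by 0.67 in log2 (SE 0.12, 95% interval 0.38 to 0.97, edgeR adjusted p = 0.147), a 1.60-fold difference. DESeq2 called it (adjusted p = 0.00726), the lowest value in a range of 0.00726 to 0.510 over 16 settings.

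Vegfd, the other FLT4 ligand gene, is X-linked and made by fibroblasts of the dermis. Its levels were 69.3, 51.1 and 53.2 CPM in the knockout and 43.3, 38.3 and 45.1 CPM in the control libraries. The groups did not overlap, and knockout 1 stood above the other 2 knockout libraries. On the log2 scale Vegfd differed by 0.45 (SE 0.13, 95% interval 0.15 to 0.76, edgeR adjusted p = 0.412), a 1.37-fold difference, and it was 0.31 without knockout 1.

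Vegfa, the central ligand of the family, stood at 153, 127 and 116 CPM in the knockout and 94.2, 87.5 and 115 CPM in the control libraries. Knockout 3 (116.2 CPM) and control 3 (115.5 CPM) were almost equal, and with upper-quartile scaling the groups overlapped. On the log2 scale Vegfa differed by 0.41 (SE 0.14, 95% interval 0.091 to 0.74, edgeR adjusted p = 0.520), a 1.33-fold difference. Its value ranged from 0.26 without knockout 1 and control 1 to 0.61 with a posterior Hox score as a covariate, on the same side of 0 in all 16 settings. Both the highest Vegfa and the highest Vegfd were in knockout 1, a library low in hair follicle markers. Control 1, also low in them, held the middle control value of both genes (94.2 CPM for Vegfa and 43.3 CPM for Vegfd).

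Vegfb, which encodes an FLT1 ligand known mainly from muscle, heart and fat, was the ligand gene without a separation. Its levels of 43.2, 46.3 and 41.5 CPM in the knockout lay among those of 47.3, 41.9 and 50.3 CPM in the control libraries. On the log2 scale Vegfb differed by −0.090 (SE 0.088, edgeR adjusted p = 0.846). Its 95% interval of −0.30 to 0.12 does not include the values measured for the other 4 ligand genes, but it overlaps the interval of Vegfa (0.091 to 0.74). The difference of Vegfb was −0.17 without control 2, −0.055 without knockout 3 and −0.037 without control 3. A difference between Vegfb and the other ligands was not tested.

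**Figure D2:**
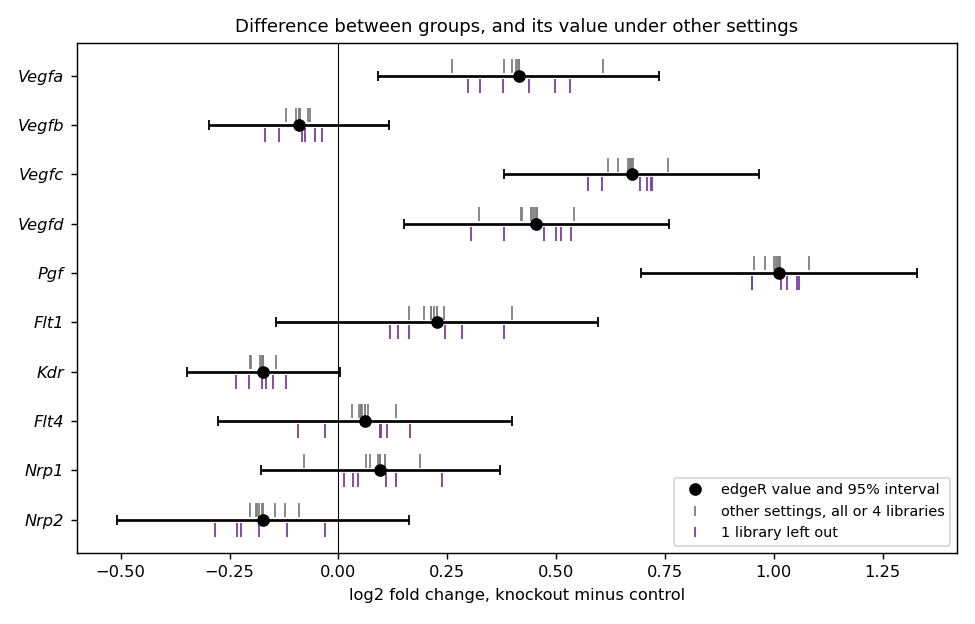
Log2 fold change of each gene, knockout minus control (black point with its 95% interval), with its value under other settings (grey ticks) and with 1 library left out (purple ticks). Pgf, Vegfc, Vegfd and Vegfa stay above 0 in every setting, while Flt4 and Nrp1 have values on both sides of 0.

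To compare genes with each other, levels were divided by the length of the longest protein-coding transcript (GENCODE M21, CPM per kb). In control skin the order was Vegfb (36.3 ± 3.33), Vegfa (28.7 ± 4.24), Nrp1 (27.8 ± 4.52), Nrp2 (26.4 ± 2.22), Vegfd (20.6 ± 1.73), Kdr (13.97 ± 0.477), Flt4 (4.68 ± 0.4998), Flt1 (3.66 ± 0.379), Vegfc (3.27 ± 0.239) and Pgf (1.91 ± 0.140 CPM per kb, SD, n = 3 for all). The first 4 form a chain in which the control libraries of each gene overlap those of the next, and so do Flt1 and Vegfc. The other neighbours in the order did not overlap. In the knockout Vegfa came first (38.2 ± 5.42 CPM per kb) and Vegfb second (34.1 ± 1.89), and Pgf (3.85 ± 0.294) remained last. The order depends on the length used: per kb of the median coding transcript, a setting added after seeing the data, Vegfa was first in the control too, at 86.6 ± 12.8 CPM per kb, and Vegfc moved above Flt4 and Flt1, at 5.33 ± 0.390 CPM per kb. The files give 1 value per gene, so isoforms such as soluble FLT1 or the forms of VEGF-A were not resolved.

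On this scale the 5 ligand genes summed to 121, 108 and 101 CPM per kb in the knockout against 90.7, 81.5 and 100.2 in the control libraries, so knockout 3 and control 3 were about level. Pgf made up 3.46, 3.48 and 3.61% of the sum in the knockout against 2.12, 2.16 and 2.04% in the control libraries. The share of Vegfb went the other way, at 27.9, 33.6 and 32.2% in the knockout against 40.7, 40.1 and 39.2% in the control libraries. With median transcript lengths the sums were 216, 188 and 174 against 150.1, 136 and 172 CPM per kb. Pgf then made up 2.28 ± 0.0857% in the knockout and 1.42 ± 0.0658% in the control libraries, and Vegfb 18.7 ± 2.01% and 24.997 ± 0.955% (SD, n = 3 each). Neither share overlapped between the groups with either length, and since shares sum to a whole, a higher share of some genes lowers that of others.

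**Figure D3:**
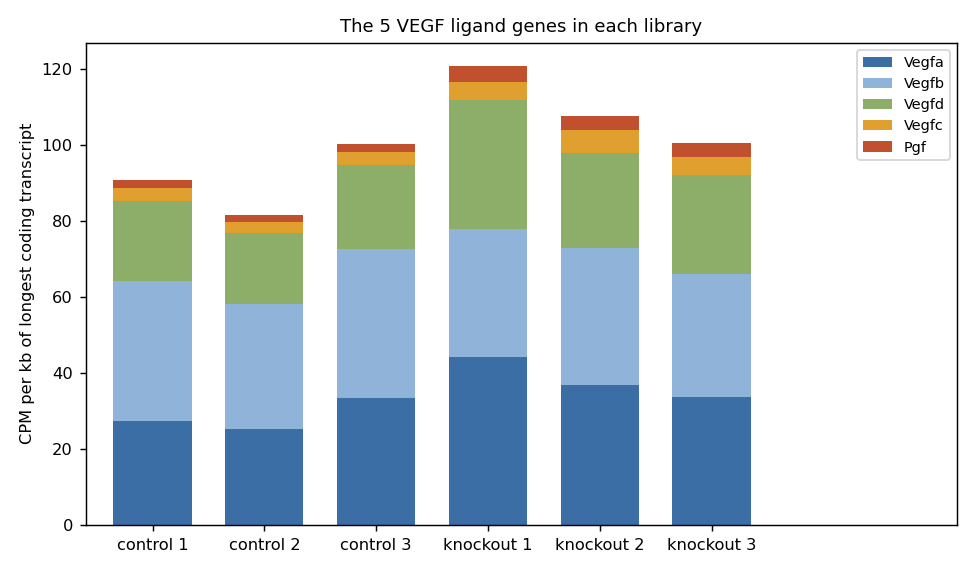
Stacked level of the 5 ligand genes in each library (y axis, CPM per kb of the longest coding transcript, from 0). Vegfa, Vegfb and Vegfd make up most of every bar, and the thin Pgf band is 3.46 to 3.61% of the knockout bars and 2.04 to 2.16% of the control bars.

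None of the 3 receptor genes reached an unadjusted p under 0.05 in edgeR, nor did either neuropilin gene. Kdr, the main signalling receptor, stood at 72.7, 67.8 and 79.7 CPM in the knockout and 85.3, 79.7 and 83.1 CPM in the control libraries. All knockout libraries were lower, but knockout 3 (79.69 CPM) and control 2 (79.74 CPM) were almost equal and overlapped with RLE scaling. The log2 fold change of Kdr was −0.17 (SE 0.075, 95% interval −0.35 to 0.0035, edgeR adjusted p = 0.674), and it lay between −0.24 and −0.12 over 16 settings.

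Flt1, the decoy receptor, stood at 22.9, 33.7 and 32.1 CPM in the knockout and 25.9, 22.4 and 27.5 CPM in the control libraries. Knockout 2 and 3 were above all controls and knockout 1 lay within them. Its log2 fold change was 0.23 (SE 0.16, 95% interval −0.14 to 0.60, edgeR adjusted p = 0.788), with 0.38 without knockout 1, 0.12 without knockout 2 and 0.14 without control 2. For Flt4, the receptor of VEGF-C and VEGF-D, the levels were 29.0, 25.9 and 36.7 CPM in the knockout and 30.6, 25.7 and 31.5 CPM in the control libraries. The groups overlapped, and its log2 fold change of 0.062 (SE 0.14, 95% interval −0.28 to 0.40, edgeR adjusted p = 0.942) was below 0 without knockout 3 (−0.092) or without control 2 (−0.032) and reached 0.16 without knockout 2.

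Of the co-receptor genes, Nrp1 stood at 114, 101 and 105 CPM in the knockout and 119, 89.3 and 91.9 CPM in the control libraries. Its highest value was in control 1, and the groups overlapped. On the log2 scale Nrp1 differed by 0.097 (SE 0.12, 95% interval −0.18 to 0.37, edgeR adjusted p = 0.887), with 0.24 without control 1, 0.045, 0.014 and 0.033 without knockout 1, control 2 or control 3, and −0.079 with the posterior Hox score as a covariate. Nrp2 stood at 124, 167 and 180 CPM in the knockout and 162, 177 and 192 CPM in the control libraries. Knockout 1 was the lowest library, and the other values overlapped. The log2 fold change of Nrp2 was −0.17 (SE 0.14, 95% interval −0.51 to 0.16, edgeR adjusted p = 0.822) with −0.031 without knockout 1 and −0.28 without knockout 3. For Vegfa, Vegfc and Nrp2 the deposited reads were not whole numbers in any library (tolerance 0.001), as arises when a read that matches several genes is split between them, while the other 7 genes had whole reads throughout.

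In bulk skin fewer cells of a type and less RNA per cell cannot be told apart, so 9 ratios within a library were also compared, with a two-sided exact permutation test over the libraries, which cannot go below p = 0.1 in a design of 3 against 3. Relative to 12 endothelial marker genes, Kdr stood at 0.75, 0.68 and 0.77 in the knockout against 0.87, 0.94 and 0.97 in the control libraries (log2 scale). Every knockout library was lower, with a difference of −0.20 (exact permutation p = 0.1, adjusted over the 9 ratios 0.225). The summed endothelial markers, at 723 to 834 CPM in the knockout and 661 to 750 CPM in the control libraries, overlapped. EdgeR called 0 of the 12, against 0.16% of all genes. Flt1 relative to the same markers differed by 0.19 (exact permutation p = 0.4, adjusted 0.45), with 0.34 without knockout 1 and 0.054 without knockout 2. Flt4 relative to them differed by 0.027 (exact permutation p = 0.8, adjusted 0.8), and by −0.070 to 0.11 with 1 library left out.

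Between receptors, the log2 ratio of Flt1 to Kdr was −1.66, −1.01 and −1.31 in the knockout against −1.72, −1.83 and −1.59 in the control libraries. Knockout 1 lay among the controls and the other 2 knockout libraries above them, a difference of 0.39 (exact permutation p = 0.2, adjusted 0.36) that was 0.23 without knockout 2. The ratio of Flt4 to Kdr was higher in every knockout library, by 0.23 (exact permutation p = 0.1, adjusted 0.225), and by 0.15 without knockout 3. Flt4 relative to 6 lymphatic markers stood at 0.34, 0.35 and 0.48 in the knockout against −0.33, −0.13 and −0.12 in the control libraries. The groups did not overlap and differed by 0.58 (exact permutation p = 0.1, adjusted 0.225), with a median log2 fold change of −0.32 for the markers beside 0.062 for Flt4 itself. The markers summed to 202 to 268 CPM in the knockout and 194 to 274 CPM in the control libraries and were spread to both sides: Prox1, the lymphatic master regulator, was at −0.94 (SE 0.22) and Lyve1, a hyaluronan receptor also found on macrophages, at 0.73 (SE 0.23), neither past the edgeR threshold (adjusted p = 0.272 and 0.502).

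Among the ligands, the log2 ratio of Pgf to Vegfa was −4.12, −4.01 and −3.92 in the knockout against −4.52, −4.54 and −4.73 in the control libraries. The groups did not overlap, with a difference of 0.58 (exact permutation p = 0.1, adjusted 0.225). The ratio of Vegfc to Vegfa overlapped between the groups and differed by 0.25 (exact permutation p = 0.3, adjusted 0.45), with 0.41 without knockout 1, 0.14 without knockout 2 and 0.16 without control 3. The ratio of Nrp2 to Nrp1 was lowest in knockout 1 (0.12) and then in control 1 (0.45), and differed by −0.29 between the groups (exact permutation p = 0.4, adjusted 0.45). That difference was −0.085 without knockout 1, −0.18 without control 3 and −0.49 without control 1.

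**Figure D4:**
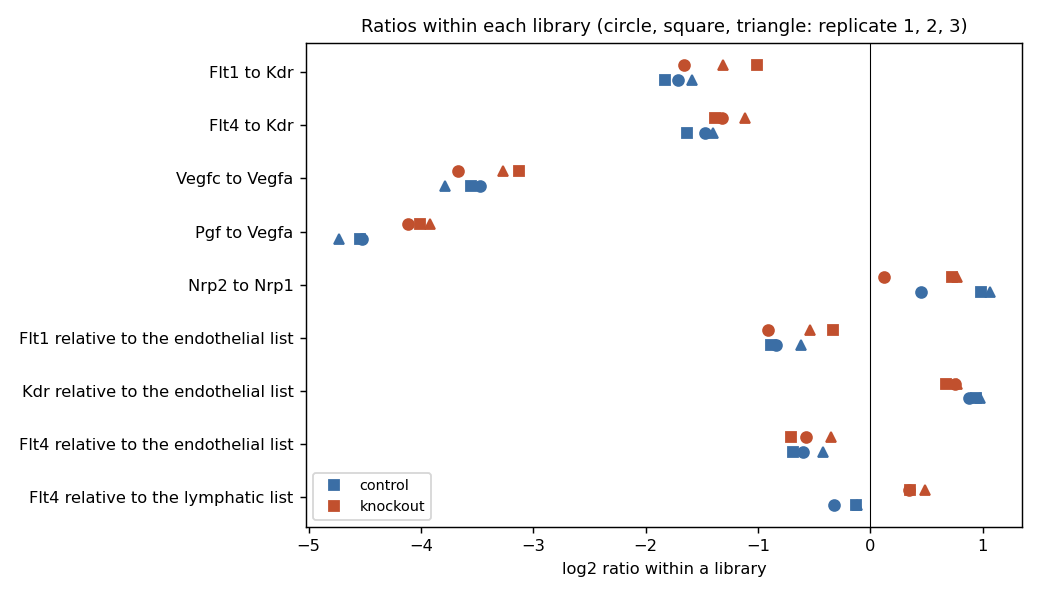
Log2 ratios within each library (x axis) for 9 pairs of genes or of a gene and a marker list, with 1 symbol per library. Pgf to Vegfa, Flt4 to Kdr, Kdr to the endothelial list and Flt4 to the lymphatic list show no overlap between the 3 knockout and the 3 control libraries.

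Markers of other cell types, some of which can make VEGF ligands, differed between the groups for some types and overlapped for others. The 6 mural cell markers summed to 653 to 701 CPM in the knockout and 513 to 541 CPM in the control libraries. EdgeR called 1 of the 6, against 0.16% of all genes. It was the pericyte receptor gene Pdgfrb, at 158 CPM against 99.5 CPM. The 6 macrophage markers summed to 397 to 454 CPM in the knockout and 284 to 394 CPM in the control libraries, with 0 of 6 called and the nearest libraries of the groups almost equal. Mast cell markers went the other way, at 1423 to 1450 CPM against 2190 to 2908 CPM, with 0 of 6 called. Adipocyte markers summed to 368 CPM in knockout 1 and to 172 to 228 CPM in all other libraries. Of these markers 1 of the 5 tested was called. Keratinocyte markers (22720 to 28082 against 16751 to 34088 CPM) and fibroblast markers (23618 to 26936 against 22175 to 26712 CPM) overlapped between the groups. No marker of these lists was at 0 in any library, and their part in the ligand values was not tested.

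Around the family, 9 lists of pathway genes were read for the same comparison. They were written with earlier results of these libraries known, so they are no independent evidence of a direction. Among 28 genes listed as VEGF-responsive in endothelial cells, 24 had a positive log2 fold change (51.2% of all genes), with a median of 0.21. Of the list, 3 rose and none fell (0.0865% and 0.0732% of all genes). The 3 were Esm1, the tip cell proteoglycan endocan (log2 fold change 4.65, SE 0.20), Apln, the peptide apelin (1.48, SE 0.11), and Angpt2, a TIE2 ligand (0.93, SE 0.11), with edgeR adjusted p = 0.000605, 0.00827 and 0.0353. At an unadjusted p under 0.05 there were 10 higher and 1 lower (4.08% and 3.35% of all genes), the last being Sele (E-selectin, named after its values were seen), an endothelial adhesion gene with 0, 1.01 and 4.06 estimated reads in the knockout against 20.96, 39.06 and 30 in the control libraries (edgeR adjusted p = 0.0875). The number that rose was 1 without knockout 2, without control 2 or without control 3. Without knockout 1 and control 1 the test called 6 of the list higher and Sele lower, against 0.923% of all genes. Further genes of the list were named after their values were seen. Egr1, Egr3, Nr4a1, Nr4a2 and Myc, immediate early genes, overlapped between the groups, at 0.12, 0.15, 0.25, 0.0033 and 0.072. Dusp1, a phosphatase of MAP kinases, was higher in every knockout library at 0.47 (SE 0.12, edgeR adjusted p = 0.345). So was Dusp5, at 0.70 (SE 0.18, edgeR adjusted p = 0.328).

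**Figure D5:**
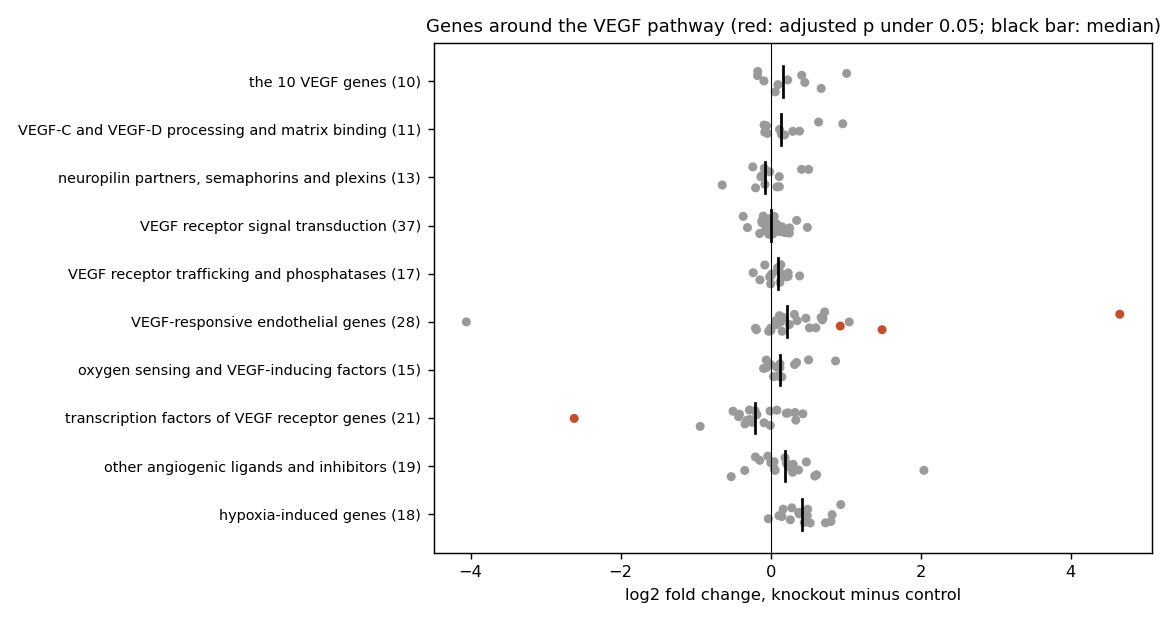
Log2 fold change of each tested gene, knockout minus control, for the 10 VEGF genes and 9 pathway lists (number tested in brackets), with genes at an edgeR adjusted p under 0.05 in red and the median as a black bar. The coloured points are Esm1, Apln and Angpt2 on the right and Foxc2 on the left, and the hypoxia list lies furthest to the right by its median, 0.42.

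Genes induced by low oxygen, which like Vegfa are targets of hypoxia-inducible factors, lay mostly above 0. Of 18 tested, 17 had a log2 fold change above 0, against 51.2% of all genes. For 12 of them every knockout library was higher than any control library, against 7.03% of all genes. The median was 0.42. None was called by edgeR with genotype alone or by limma-voom over all 6 libraries. In edgeR 13 were higher at an unadjusted p under 0.05, against 4.08% of all genes. DESeq2 called 8, against 1.4% of all genes it tested. Without knockout 1 and control 1, as with the hair follicle score as a covariate, edgeR called Pgk1 and Ndrg1 (without them, adjusted p = 0.0485 and 0.00695). The glycolytic gene Pgk1 was measured at 585 ± 42.7 CPM in the knockout and 406 ± 24.2 CPM in the control (log2 difference 0.53, SE 0.083, edgeR adjusted p = 0.0847). Pdk1, a mitochondrial kinase, was at 0.49 (SE 0.082, edgeR adjusted p = 0.103). Ndrg1, a stress response gene, was at 0.80 (SE 0.15, edgeR adjusted p = 0.165). Whether low oxygen had a part in the Vegfa values was not tested.

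Of 15 oxygen sensors and factors that induce VEGF, none was called by edgeR or limma-voom over all 6 libraries, and 4 were higher at an unadjusted p under 0.05, against 4.08% of all genes, with a median of 0.12. DESeq2 called Egln3, and edgeR called Hif3a without knockout 1 and control 1 (adjusted p = 0.0324). Over all genes these 2 settings called 1.4% and 0.923%. Egln3, a prolyl hydroxylase that is itself induced by low oxygen, stood at 214, 179 and 191 CPM in the knockout and 86.8, 89.2 and 145 CPM in the control libraries (log2 difference 0.86, SE 0.21, edgeR adjusted p = 0.328). Its groups did not overlap, and a link between Egln3 and Vegfa was not tested. Egln1, the main oxygen sensor, was at 0.32 (SE 0.090) and Hif3a, an inhibitory subunit, at 0.34 (SE 0.083), with edgeR adjusted p = 0.402 and 0.277.

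Of 11 genes for the processing and matrix binding of VEGF-C and VEGF-D, none was called by edgeR with genotype alone over all 6 libraries or by limma-voom, and 2 were higher at an unadjusted p under 0.05, against 4.08% of all genes, with a median of 0.14. Svep1, a matrix protein needed for lymphatic remodelling, was in the list but is not known to cleave VEGF-C or VEGF-D. It stood at 79.2, 50.8 and 60.7 CPM in the knockout and 36.2, 27.4 and 34.3 CPM in the control libraries. Its groups did not overlap (log2 difference 0.96, SE 0.18, edgeR adjusted p = 0.168). Svep1 was called by DESeq2 (adjusted p = 0.00014), and by edgeR without knockout 1 and control 1 (adjusted p = 0.0396) and with the replicate number as a block (adjusted p = 0.0212). Ccbe1, the matrix factor that promotes cleavage of VEGF-C, was at 0.38 (SE 0.14, edgeR adjusted p = 0.577), and Furin, a protease that cuts the VEGF-C precursor, at 0.14 (SE 0.068, edgeR adjusted p = 0.688).

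Genes that act after the receptors or on their uptake were read as 2 lists. Of 37 signal transduction genes, none was called by edgeR, DESeq2 or limma-voom, 2 were higher and 1 lower at an unadjusted p under 0.05 (4.08% and 3.35% of all genes), and the median log2 fold change was −0.00093. They were Hspb1, a small heat shock protein downstream of KDR, at 0.49 (SE 0.18), the PI3-kinase subunit gene Pik3ca at 0.15 (SE 0.061) and Nfatc1, a calcineurin-dependent factor, at −0.37 (SE 0.15), with edgeR adjusted p of 0.597, 0.639 and 0.663. Of 17 genes for receptor trafficking and phosphatases, none was called by any of the 3 tools and the median was 0.10, with 1 higher at an unadjusted p under 0.05 (4.08% of all genes), Efnb2, the ephrin that promotes VEGF receptor uptake, at 0.23 (SE 0.077, edgeR adjusted p = 0.518). The receptor phosphatase gene Ptprj was at 0.23 (SE 0.12) and Myo6, a motor of endocytosis, at 0.16 (SE 0.089), with edgeR adjusted p = 0.718 and 0.732.

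Of 13 semaphorin, plexin and adaptor genes that work with neuropilins, none was called by any of the 3 tools over all 6 libraries, and 1 was higher and 1 lower at an unadjusted p under 0.05 (4.08% and 3.35% of all genes), with a median of −0.077. The NRP1 ligand gene Sema3a stood at 42.4 ± 2.62 CPM in the knockout and 31.9 ± 4.45 CPM in the control (log2 difference 0.41, SE 0.11, edgeR adjusted p = 0.364). Without knockout 1 and control 1 edgeR called it (log2 difference 0.51, adjusted p = 0.0480), against 0.923% of all genes. Plxnd1, an endothelial semaphorin receptor, was at −0.20 (SE 0.085, edgeR adjusted p = 0.667) and Sema3e, its ligand, at 0.51 (SE 0.29, edgeR adjusted p = 0.747).

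Of 21 transcription factors that regulate VEGF receptor genes or vessel identity, 1 fell and none rose (0.0732% and 0.0865% of all genes). The median log2 fold change was −0.21, with 2 higher and 5 lower at an unadjusted p under 0.05 (4.08% and 3.35% of all genes). The gene that fell was Foxc2, a factor of lymphatic and venous valves, at 0.585 ± 0.121 CPM in the knockout and 3.62 ± 1.17 CPM in the control (log2 difference −2.62, SE 0.32, edgeR adjusted p = 0.0411). The call was lost when any 1 of the 6 libraries was left out, with the posterior Hox score and with limma-voom. DESeq2 called 2 of the list, Foxc2 and Prox1, both lower, against 1.4% of all genes it tested. Ets1, an activator of the Kdr and Flt1 promoters, was at 0.23 (SE 0.064, edgeR adjusted p = 0.380).

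Among 19 tested genes listed as ligands and inhibitors of angiogenesis outside the VEGF family, none was called by edgeR or limma-voom. In edgeR 3 were higher at an unadjusted p under 0.05 (4.08% of all genes). DESeq2 called 2, against 1.4% of all genes it tested, and the median was 0.19. The list also held genes of other function, such as Chm and Isg15, so these values are not for such ligands and inhibitors alone. Adm, the vasodilator adrenomedullin, which is also induced by low oxygen, stood at 32.2, 19.1 and 17.8 CPM in the knockout and 5.57, 3.37 and 7.80 CPM in the control libraries (log2 difference 2.04, SE 0.36, edgeR adjusted p = 0.156). As for Vegfa and Vegfd, knockout 1 held the most. The matricellular genes Ctgf and Thbs1 were at 0.61 (SE 0.12) and 0.37 (SE 0.15), at an edgeR adjusted p of 0.159 and 0.668.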

How the data were processed

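Poly(A) RNA of E17.5 mouse skin was sequenced in 3 knockout and 3 control libraries. The authors deposited 1 estimated count per gene and library, not normalized, per the file headers and the values. RSEM 1.2.12, Bowtie2 2.2.5, HISAT2 2.0.4 and the build GRCm38.p6 are listed in the submitters' processing notes, without their roles. No source used here gives the use of strand, so reads of overlapping genes cannot be told apart.

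Estimated counts were rounded, filtered with filterByExpr (minimum count 10), scaled by TMM and tested with edgeR 4.0.16 in R 4.3.3 (robust quasi-likelihood, genotype only, Benjamini-Hochberg over 15035 genes, threshold 0.05). The SE is the absolute log2 fold change divided by the square root of F. Log2 ratios used a prior count of 2. DESeq2 1.42.0 and limma-voom (limma 3.58.1) were alternatives. The test was checked on simulated counts with 200 changed genes. The text names the 10 members, Tie1 and, from each of the 9 pathway lists, the 3 genes with the smallest p. Other genes were named after their values were seen, as were genes in the marker comparisons. Members and lists were chosen with earlier results of these data known. Coordinates and promoters are RefSeq GRCm38.p6, and transcript lengths are GENCODE M21. Intervals cover counting error or the spread of 3 libraries only.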

Additional observations from a re-analysis of the deposited data

How the results depend on the processing

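Over 16 other settings, the log2 fold changes of Vegfa, Vegfc, Vegfd, Pgf, Flt1, Kdr, Vegfb and Nrp2 kept their sign. Flt4 turned negative without knockout 3 (−0.092) and without control 2 (−0.032), also relative to the endothelial markers (−0.070 and −0.030), with ranges over the fits without 1 library of −0.092 to 0.16 and −0.070 to 0.11, and Nrp1 with the posterior Hox score (−0.079). The cause was not tested. The number of the 10 genes called was 0 in the main test, 1 with no filter, with the hair follicle score and without knockout 1 and control 1, 2 with DESeq2 and 0 in each fit without 1 library. The number over all genes, 24, became 38, 112, 139 and 210 in those 4 settings, 15 with limma-voom, 5 with the posterior Hox score, and 1 to 11 without 1 library (1 without knockout 2), where fewer samples were fitted. For the 9 pathway lists together, 4 calls became 22 with DESeq2, 11 with the hair follicle score, 1 with the posterior Hox score, 13 without knockout 1 and control 1, and 1 to 2 without 1 library. For the VEGF-responsive list, 3 calls became 8 with DESeq2 and with the hair follicle score and 1 with the posterior Hox score. They became 7 without knockout 1 and control 1, and 1 to 2 without 1 library. For the hypoxia genes, 0 calls became 8 with DESeq2 and 2 with the hair follicle score or without knockout 1 and control 1.

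Whether the replicate numbers pair the libraries was not settled. Same-numbered knockout and control libraries correlated at 0.41, 0.043 and 0.27 in their deviations. Knockout 1 and knockout 3 correlated best with the control of the same number, and knockout 2 with control 3 (0.18). With the replicate number as a block, 52 genes, 8 of the pathway lists and 6 of the VEGF-responsive list were called, and 0 of the 10 VEGF genes. Depth limits Pgf most, at 74 to 169 reads a library.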
